A study of Homo sapiens with 4 samples.

Results

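The regions described here are the Argonaute PAR-CLIP regions that fall on 8 protein-coding genes known as oncofetal targets of the let-7 microRNAs: HMGA2, HMGA1, LIN28B, IGF2BP1, IGF2BP2, IGF2BP3, ARID3B and TRIM71. A region was a member if it overlapped the hg19 window of one of these genes on the gene's own strand. The deposited list held 211947 regions, and 190 of them (0.0896%) were members. The choice of genes used no score or region count, although the genes were chosen with earlier results of these data known.

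HEK293, an established human embryonic kidney cell line, was the source of all 4 PAR-CLIP libraries. In PAR-CLIP, cells take up a photoreactive uridine analogue, ultraviolet light links the labelled RNA to the protein of interest, and the RNA that comes down with the protein is sequenced. Of the 4 libraries, 3 came from AGO1 and 1 from AGO2. The AGO1 cells stably expressed a His/FLAG/HA-tagged protein, received 200 µM 4-thiouridine and were precipitated with a FLAG antibody. The AGO2 cells, for which the sample labels name no tag, received 100 µM and were precipitated with the AGO2 antibody 11A9, whereas the series design speaks of tagged lines for both proteins. Labelling lasted 16 h and the crosslinking wavelength was 365 nm in all 4 libraries. The deposited list gives 1 whole-number score per region with no value per library, so AGO1 and AGO2 could not be compared, the depth of each library is unknown, no value below has a replicate error, and no difference between values was tested. The sources used here do not give what the score counts. Over the whole list it ran from 1 to 1000.

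Argonaute proteins carry microRNAs and hold them against messenger RNAs, mostly in the 3′ untranslated region, where pairing through the seed of the microRNA leads to repression and decay of the target. The let-7 microRNAs rise as embryonic tissues mature and keep a set of growth-promoting genes low in most adult tissues. When let-7 is low, in the embryo and again in many tumours, these genes are expressed, hence the name oncofetal. LIN28B closes a loop in this system, since its protein blocks the maturation of let-7 and its own messenger RNA is a let-7 target.

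The let-7 family is shown because its shared seed is what defines these genes as a group. The mature 5p sequences below are from RefSeq on GRCh38.p14, written 5′ to 3′, with the seed, bases 2 to 8, in capitals.
let-7a: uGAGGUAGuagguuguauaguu
let-7d: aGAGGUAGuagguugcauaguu
let-7e: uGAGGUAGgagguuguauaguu
let-7i: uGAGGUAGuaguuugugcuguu
miR-98: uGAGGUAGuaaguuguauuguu

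All 9 distinct let-7 and miR-98 5p sequences, encoded at 12 loci, carried the same seed, GAGGUAG, and had 0 differences from let-7a within it. Outside the seed, counting from 1 at the 5′ end and giving the let-7a base first, let-7d differed from let-7a by U1A and U16C, let-7e by U9G, miR-98 by G11A and A19U, and let-7i by G12U, A17G, U18C and A19U. In the same table, miR-4458 and miR-4500 also carried this seed, which brings the number of mature human microRNAs with it to 11. The complementary match in a target RNA reads CUACCUC. Whether the regions below contain this match, and which microRNA was bound at any of them, was not analysed here, because no hg19 sequence was used.

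The members were spread very unevenly over the 8 genes. IGF2BP1 held 74 regions, LIN28B 49 and HMGA2 33, so that these 3 genes held 156 of the 190 regions (82.1%). They carried 84.2% of the total score of 1193. The other 5 genes held 34 regions together, with 11 in IGF2BP3, 8 in IGF2BP2, 7 in HMGA1, 5 in ARID3B and 3 in TRIM71. The windows differ in length, from 9432 nt for HMGA1 to 181301 nt for IGF2BP2, and the amount of each messenger RNA in the cells was not measured here, so a gene with few regions cannot be told apart from a gene whose RNA is scarce. On the opposite strand of the same 8 windows the list held 0 regions.

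Most regions lay at the 3′ end of the genes. Distances are given from the 1-nt position that the authors placed inside each region to the 3′ edge of the gene window. The last 5000 nt of the 8 windows made up 4.94% of their length and held 124 of the 190 regions (65.3%), which carried 71.4% of the summed score. This came to 3.1 regions per kb in these 40000 nt, against 0.0858 regions per kb in the rest of the windows. In 7 of the 8 genes more regions lay inside the last 5000 nt than outside, and the exception was IGF2BP1, with 30 of 74. The window of HMGA1 is only 9432 nt long and leaves 4432 nt outside, so a majority in its last 5000 nt says little. The highest-scoring region lay in the last 5000 nt in 7 genes and in the last 8000 nt in all 8. The windows include introns, and which of the regions lie in exons was not analysed here. The same shares were not taken for other genes, so a place near the 3′ end is not shown to be particular to these 8.

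**Figure D1:**
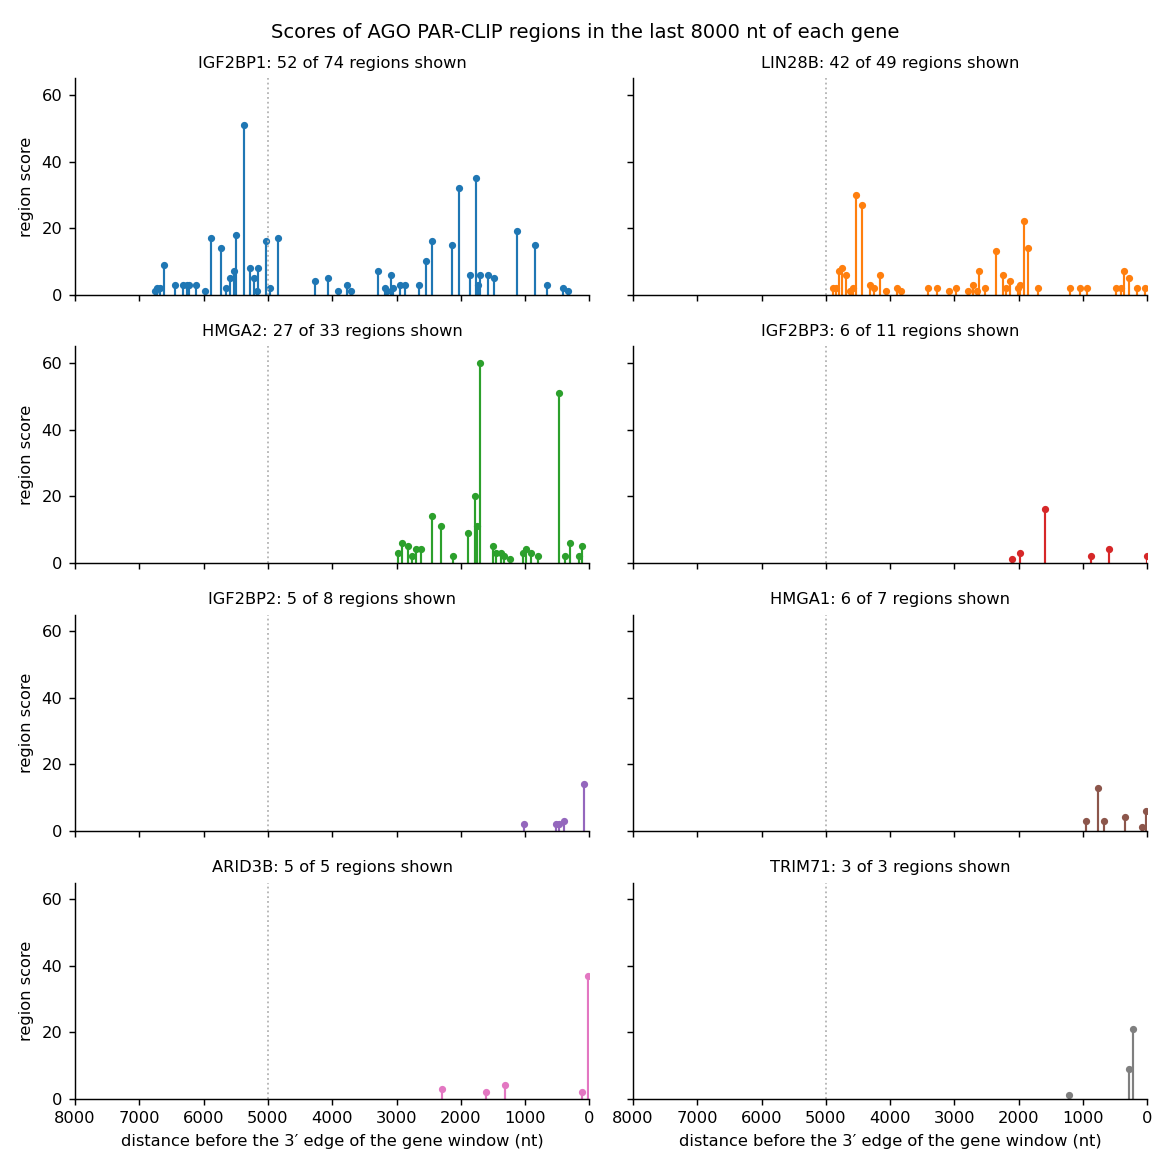
Region score (linear axis) against the distance of the region's 1-nt inner position from the 3′ edge of the gene window in nt, for the last 8000 nt of each of the 8 genes, with the 3′ edge at the right and a dotted line at 5000 nt. Each stem is 1 region of the pooled list. IGF2BP1, LIN28B and HMGA2 show dense stems, with 52, 42 and 27 regions, and the other 5 genes show 3 to 6.

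Over the same last 5000 nt, the genes can be compared per length. LIN28B had the densest cover with 8.4 regions per kb, followed by IGF2BP1 with 6.0 and HMGA2 with 5.4. The other 5 genes had 0.60 (TRIM71) to 1.2 (HMGA1 and IGF2BP3) regions per kb. All values of TRIM71 in this comparison rest on a window that may end before its transcript, as described below. By summed score per kb the order of the leading 3 was different, with 48.6 for HMGA2, 46.8 for IGF2BP1 and 43.0 for LIN28B, and the other 5 genes ranged from 4.6 in IGF2BP2 to 9.6 in ARID3B. The gap between the leading 3 and the other 5 genes depends on the length taken. In the last 1000 nt HMGA2 had 8 regions, LIN28B 7, HMGA1 6, and IGF2BP1 and IGF2BP2 4 each. IGF2BP3 had 3 there, and ARID3B and TRIM71 had 2 each. The summed scores there were 75 in HMGA2, 39 in ARID3B and 30 each in HMGA1 and TRIM71. LIN28B had 22, IGF2BP1 and IGF2BP2 21 each, and IGF2BP3 8. Cut into a fixed grid of 5000 nt per strand, the nuclear chromosomes had 66125 windows with any region, with a median of 1 region. As many regions as in the last 5000 nt of LIN28B were found in 0.0802% of them. The share was 0.476% for IGF2BP1 and 0.727% for HMGA2. For HMGA1 and IGF2BP3 this share was 14.4%, for IGF2BP2 and ARID3B 17.8% and for TRIM71 30.9%. By summed score the order of the leading 3 was again different, since 0.821% of the grid windows reached that of HMGA2, 0.874% that of IGF2BP1 and 1.03% that of LIN28B. For the other 5 genes the share by summed score was 8.32% for ARID3B, 12.6% for TRIM71, 13.0% for HMGA1, 13.7% for IGF2BP3 and 16.2% for IGF2BP2. The grid windows lie at fixed positions and can split a run, whereas the stretches of the 8 genes were set at the 3′ edge. Most member regions lay there, so these shares are not a comparison with the 3′ ends of other genes.

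**Figure D2:**
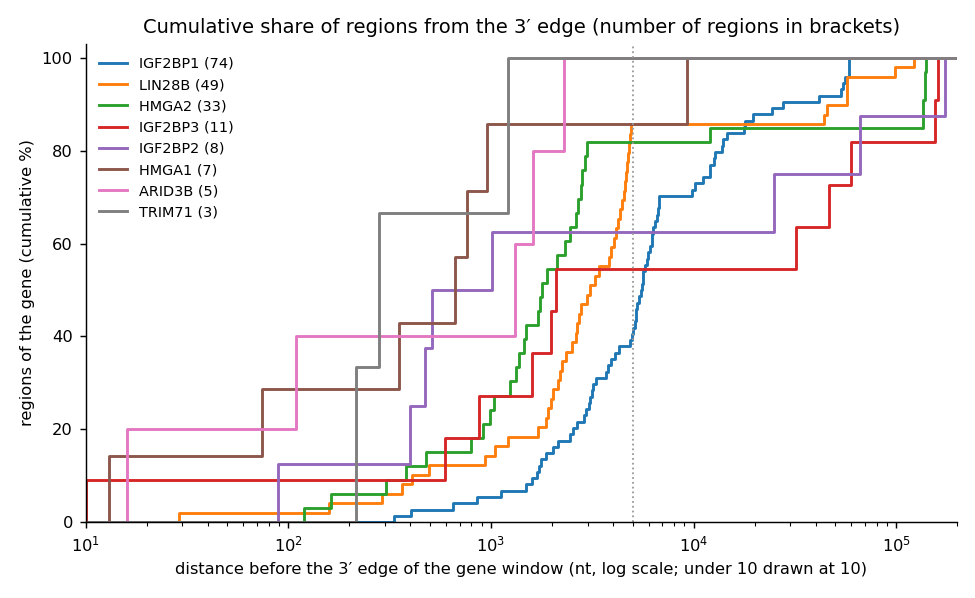
Cumulative share of each gene's regions (in %) against the distance from the 3′ edge of the gene window in nt on a log scale, with 1 line per gene and a dotted line at 5000 nt. TRIM71 and ARID3B reach 100% before 5000 nt, whereas IGF2BP1 stands at 40.5% there and the other 5 genes stand between 54.5% and 85.7%.

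HMGA2, a well-studied let-7 target, encodes a small chromatin protein that bends AT-rich DNA and promotes growth of embryonic tissue. Its window is chr12:66218240-66360071 on the plus strand. A single run of 27 regions, from 119 to 2981 nt before the 3′ edge, held 81.8% of its regions and 94.9% of its summed score. In such a run, each region starts no more than 1000 nt after the end of its neighbour on the same strand. It spanned chr12:66357079-66359996 and its regions covered 45.8% of that span.

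Within this run 2 regions stood out. The region at chr12:66358341-66358398, 58 nt wide, had a score of 60, the highest of all 190 members, and 0.687% of the regions in the whole list scored as high. The region at chr12:66359548-66359653, 106 nt wide, had a score of 51. These 2 held 111 of the summed score of 256 in HMGA2 (43.4%). The other regions of HMGA2 scored 20 or less. The median was 3 over all 33 regions, and 12 of the 33 had a score of 1 or 2. The peak at chr12:66358341-66358398 had close neighbours on its 5′ side. A region with a score of 11 ended 4 nt before it, and a region with a score of 20 at chr12:66358261-66358295 ended 9 nt before that one, so whether these are separate sites cannot be told from the list.

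By distance, HMGA2 had 8 regions with a summed score of 75 in the last 1000 nt, 10 regions with 117 in the next 1000 nt and 9 regions with 51 in the 1000 nt before those. From 3000 to 8000 nt before the 3′ edge it had 0 regions. Only 6 regions lay farther away. Of these, 5 lay within 7000 nt of the 5′ edge and 1 lay 12098 nt before the 3′ edge, and the highest score among the 6 was 4.

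HMGA1, the paralogue of HMGA2 and likewise an architectural chromatin protein, had 7 regions with a summed score of 38 in the window chr6:34204577-34214008 on the plus strand. Its highest region, chr6:34213215-34213265, had a score of 13 and lay 759 nt before the 3′ edge. All but 1 of the regions lay in the last 1000 nt, where 6 regions had a summed score of 30. The remaining region, chr6:34204659-34204714, lay 112 nt from the 5′ edge and had a score of 8, the next highest in the gene. The region at chr6:34213977-34214006 had a score of 6 and lay 13 nt before the 3′ edge. HMGA2, for comparison, had 27 regions and a summed score of 243 over its last 3000 nt, and HMGA1 had 6 regions and 30 over the same length.

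ARID3B encodes a DNA-binding protein with an AT-rich interaction domain. All 5 of its regions lay in the last 3000 nt of the window chr15:74833518-74890472 on the plus strand, with a summed score of 48. A single region, chr15:74890395-74890472, carried 37 of that score (77.1%). It was 78 nt wide and ended exactly at the 3′ edge of the window. In the whole list 1.54% of regions scored as high. The next were chr15:74889139-74889175, with a score of 4, and chr15:74888174-74888219, with a score of 3, and the other 2 had a score of 2 each.

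TRIM71, the homologue of the Caenorhabditis elegans let-7 target lin-41, encodes an RNA-binding ubiquitin ligase of early embryonic cells. Its window, chr3:32859510-32933770 on the plus strand, held 3 regions with a summed score of 31. The region at chr3:32933544-32933590 had a score of 21 and lay 216 nt before the 3′ edge, and its neighbour at chr3:32933467-32933529 had a score of 9. The last region, chr3:32932546-32932575, had a score of 1. More regions lay in the 6000 nt beyond the 3′ edge of this window than inside it. Within 6000 nt past the edge the same strand held 9 regions with a summed score of 47. The nearest began 111 nt past the edge and had a score of 6. Another began 735 nt past the edge, and the rest began 4301 to 5515 nt past it. The highest, chr3:32938253-32938285, had a score of 25 and lay 4483 nt past the edge. The next coding gene past TRIM71 in the RefSeq gene order is CCR4, and these 9 regions were assigned to neither gene here. TRIM71, like LIN28B and the 3 IGF2BP genes, is longer in the RefSeq table of GRCh38.p14 than in the hg19 window used here, so the TRIM71 window may end before the transcript does, which was not tested. With these regions counted, TRIM71 would have 12 regions and a summed score of 78 in place of 3 and 31, and its place as the gene with the fewest regions rests on the window. In the other 7 genes the 6000 nt past the 3′ edge held 0 regions, and the nearest was 6173 nt past the edge of HMGA2, with a score of 1. On the 5′ side, within 6000 nt outside the windows, LIN28B and IGF2BP3 had 1 region each, both with a score of 2, and the other 6 genes had 0.

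**Figure D3:**
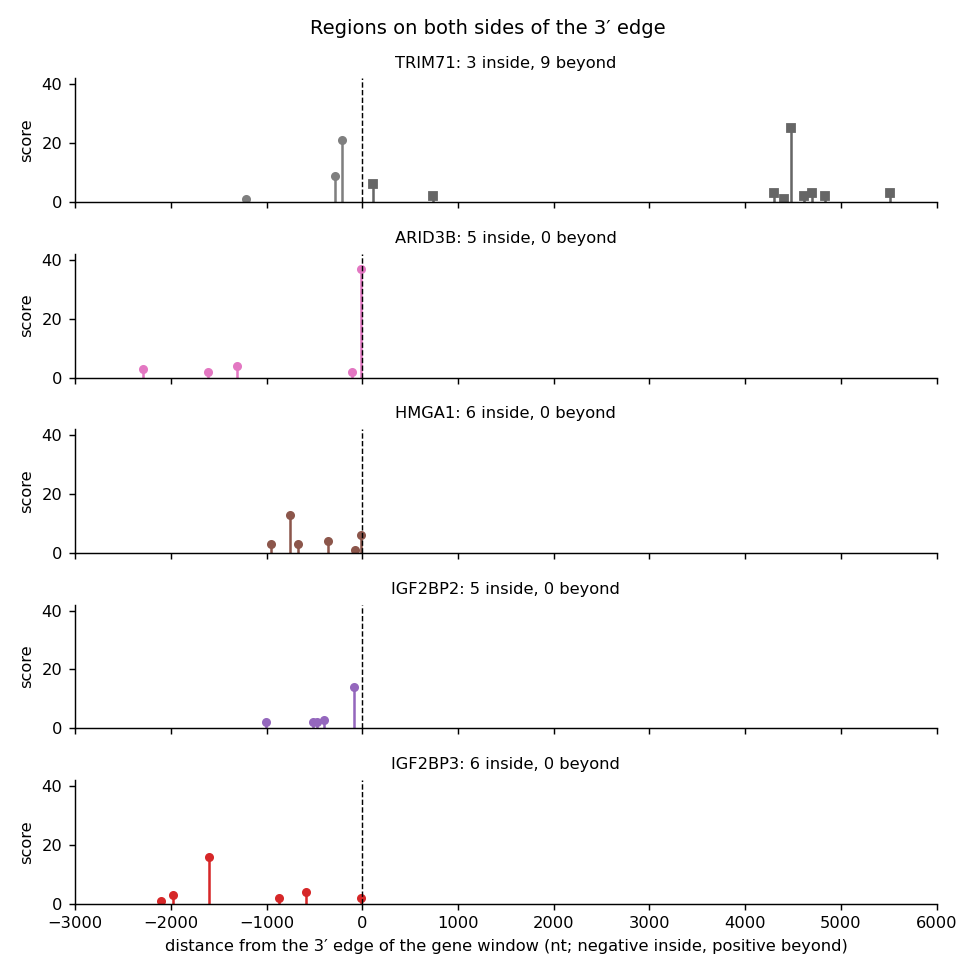
Region score (linear axis) on both sides of the 3′ edge of the gene window (dashed line) for the 5 genes with few regions, from 3000 nt inside to 6000 nt beyond. Coloured circles are members at the distance of their inner position, and grey squares are regions outside the window at the distance of their nearer end. TRIM71 has 3 regions inside and 9 beyond, and the other 4 genes have 0 beyond.

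LIN28B encodes the RNA-binding protein that binds let-7 precursors and prevents their processing. Its window is chr6:105404923-105531207 on the plus strand. It held 49 regions with a summed score of 242, of which 42 regions and a score of 215 lay in 1 run from 29 to 4888 nt before the 3′ edge (chr6:105526312-105531197). Gaps inside this run were 1 to 466 nt long, with a median of 39 nt. Scores were mostly low. The median over the run was 2, 28 of its 42 regions had a score of at most 3, and the highest score was 30.

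Of the 5 regions of the LIN28B run with a score of at least 10, 4 formed 2 adjacent pairs. Near the 5′ end of the run the regions chr6:105526653-105526726, with a score of 30, and chr6:105526749-105526810, with a score of 27, were 22 nt apart. At 1912 and 1862 nt before the 3′ edge the regions chr6:105529244-105529323, with a score of 22, and chr6:105529325-105529428, with a score of 14, were 1 nt apart. The fifth region had a score of 13 and lay between the pairs. The last 1000 nt before the 3′ edge held 7 regions with a summed score of 22. The 1000 nt from 4000 to 5000 nt before the 3′ edge held 13 regions with a summed score of 97, against 5 regions with a summed score of 8 in the 1000 nt that followed toward the 3′ edge. Outside the run LIN28B had 7 regions. Of these, 3 followed each other 56937 to 57021 nt before the 3′ edge (chr6:105474175-105474286), with a highest score of 11, and the other 4 had scores of 1 to 3.

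The IGF2BP genes encode a family of proteins that bind messenger RNAs, among them that of the growth factor IGF2. They are expressed in embryonic tissue and tumours. The family members differed widely. IGF2BP1 had 74 regions with a summed score of 506, IGF2BP3 had 11 with 39 and IGF2BP2 had 8 with 33. Over the last 5000 nt, which puts the 3 genes on the same length, they had 30, 6 and 5 regions and summed scores of 234, 28 and 23. In the last 1000 nt IGF2BP1 and IGF2BP2 each had 4 regions with a summed score of 21, and IGF2BP3 had 3 with 8.

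IGF2BP1, in the window chr17:47074774-47133507 on the plus strand, held the longest run of the 8 genes. It had 52 regions between 331 and 6755 nt before the 3′ edge (chr17:47126714-47133190), with a summed score of 416 and cover of 40.2% of its span. The highest region, chr17:47128119-47128157, had a score of 51, was 39 nt wide and lay 5366 nt before the 3′ edge. The next were chr17:47131682-47131754, with a score of 35, and chr17:47131420-47131490, with a score of 32. In this run 13 of the 52 regions had a score of at least 10, and in the whole gene 14 of 74. HMGA2 had 6 of 33 and LIN28B 6 of 49, and each of these 3 genes had 3 regions of at least 20. The 2 highest regions held 17.0% of the summed score of IGF2BP1, which had the most regions to share it.

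The summed score of the run in IGF2BP1 was highest in 2 stretches. From 5000 to 6000 nt before the 3′ edge 13 regions had a summed score of 153, and from 1000 to 3000 nt 14 regions had summed scores of 80 and 82 in the 2 successive 1000-nt stretches. Between them, from 3000 to 5000 nt, 12 regions had summed scores of 23 and 28. At the ends of the run the summed scores were also low, with 21 for 4 regions in the last 1000 nt and 29 for 9 regions from 6000 to 7000 nt. With a maximum gap of 500 nt the run fell into 2 arrays of 24 and 28 regions. The other 22 regions of IGF2BP1 lay farther 5′ and had a summed score of 90, a median score of 3 and a highest score of 15, at chr17:47113923-47113950. Between 9823 and 14657 nt before the 3′ edge 10 of them lay in 2 runs, and 3 lay within 1000 nt of the 5′ edge, with a highest score of 7.

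IGF2BP2 and IGF2BP3 are on the minus strand. In IGF2BP2 (chr3:185361527-185542827) the highest region, chr3:185361606-185361630, had a score of 14 and lay 89 nt before the 3′ edge. It carried 42.4% of the gene's summed score. Of its 8 regions 5 lay in the last 5000 nt, and the next highest, chr3:185386507-185386535, with a score of 6, lay 24996 nt before the 3′ edge. It was followed by chr3:185361914-185361940, with a score of 3. In IGF2BP3 (chr7:23349828-23510086) the highest region, chr7:23351408-23351445, had a score of 16 and lay 1597 nt before the 3′ edge. The next were chr7:23409461-23409485, with a score of 5 at 59643 nt, and chr7:23350385-23350436, with a score of 4 at 592 nt. Of its 11 regions 6 lay in the last 5000 nt, and the other 5 had scores of 1 to 5.

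The scores of the members were close to those of the whole list. The median score was 3 in the members and 3 in the whole list, with interquartile ranges of 2 to 6 and 2 to 5, and the mean was 6.28 in the members and 5.48 in the list. Of the 190 members 31 scored 10 or more (16.3%, Wilson 95% interval 11.7 to 22.2), against 11.0% of all regions. Scores of 20 or more were seen in 11 members (5.79%, 3.26 to 10.1), against 4.09% of all regions, and scores of 50 or more in 3 members (1.58%, 0.538 to 4.54), against 0.945%. The lower bound of the interval was above the share of the whole list at the minimum of 10 and below it at the minimums of 20 and 50. Without IGF2BP1 the share at the minimum of 10 was 14.7%, nearer to the 11.0% of all regions. No interval is given for it here, so whether the difference at this minimum holds without this 1 gene was not tested. The intervals above cover counting error only, and neighbouring regions on 1 RNA are not independent. Every gene had at least 1 region with a score of at least 10, from 1 each in HMGA1, IGF2BP2, IGF2BP3, ARID3B and TRIM71 to 6 each in HMGA2 and LIN28B and 14 in IGF2BP1.

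**Figure D4:**
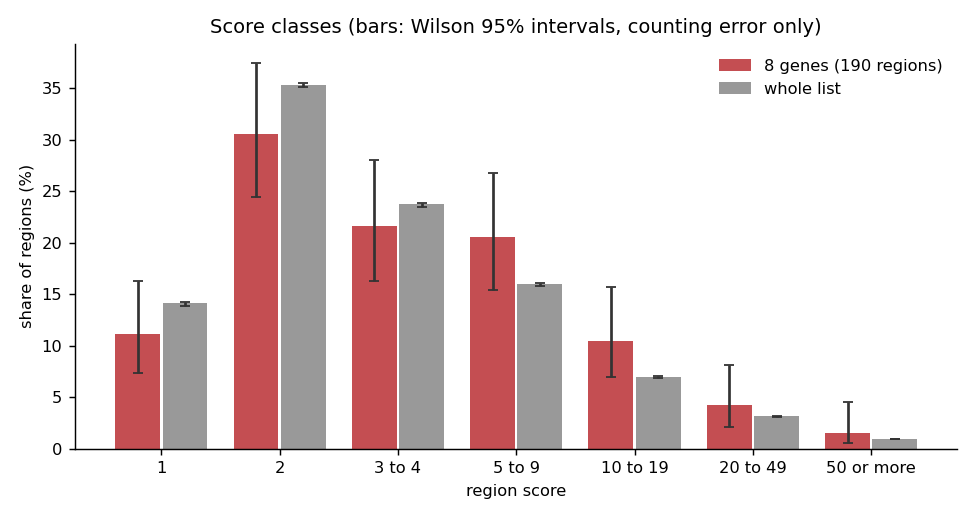
Share of regions (in %, axis from 0) in 7 classes of score for the 190 regions of the 8 genes (red) and the 211947 regions of the whole list (grey), with Wilson 95% intervals as error bars. The 8 genes lie lower at scores of 1 and 2, with 11.1% and 30.5% against 14.1% and 35.3%, and higher from a score of 5 on, and the error bars overlap in all 7 classes.

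Within the 8 genes, scores of 10 or more were seen in 24 of 124 regions in the last 5000 nt (19.4%, Wilson 95% interval 13.4 to 27.2) and in 7 of 66 regions elsewhere (10.6%, 5.23 to 20.3). These intervals overlap, and 6 of the 7 regions elsewhere belonged to IGF2BP1, of which 5 lay in the part of its terminal run beyond 5000 nt. The median score was 3 in both places. Members were a median of 36 nt wide, against 32 nt in the whole list, with a range of 18 to 132 nt. Members with a score of at least 10 had a median width of 62 nt and the others 34 nt, and in the whole list these medians were 56 and 31 nt. Across the 190 members width and score had a Spearman's rho of 0.424, against 0.453 across the whole list. Regions of 1 RNA share its abundance, so these are descriptions only.

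IGF2BP1, LIN28B and HMGA2 each had a run with many regions. These 3 runs were the only ones among the 38 runs of the 8 genes that reached 10 regions, and they held 121 of the 190 members (63.7%), against 40.4% of all regions of the list. Among the 4320 arrays of at least 10 regions in the list, 101 (2.34%) had at least the 52 regions of IGF2BP1, 222 (5.14%) at least the 42 of LIN28B and 813 (18.8%) at least the 27 of HMGA2. By summed score, 5.0% of the arrays reached the 416 of IGF2BP1, 13.5% the 243 of HMGA2 and 16.6% the 215 of LIN28B. The summed score per region was 9.0 in the array of HMGA2, 8.0 in that of IGF2BP1 and 5.12 in that of LIN28B, against a median of 5.14 over all arrays. LIN28B thus had the longer array with a score per region near that median, and HMGA2 the shorter one with a higher score per region.

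**Figure D5:**
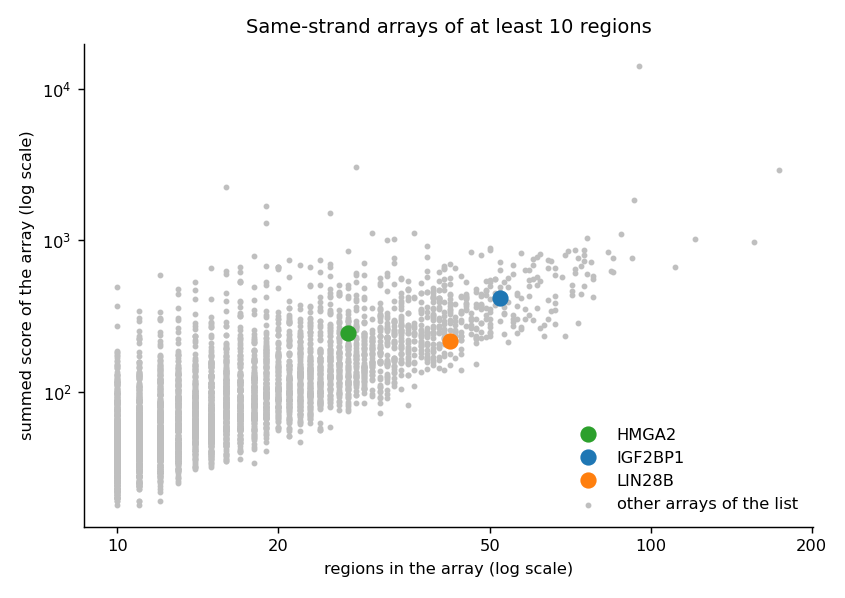
Summed score against number of regions (both axes log scale) for the 4320 same-strand arrays of at least 10 regions in the list, with the 3 arrays in HMGA2, IGF2BP1 and LIN28B as large coloured points and the others in grey. The 3 arrays have 27, 52 and 42 regions and lie within the grey cloud, with IGF2BP1 toward its upper right.

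Single regions far from any other made up a smaller share of the 190 members than of the whole list, though not in every gene. A run of 1 region only was the case for 22 of the 190 members (11.6%), against 22.8% of all regions. Their median score was 2 and their highest 15, and 13 of the 22 had a score of 1 or 2. In IGF2BP2 1 run held 5 of the 8 regions, and in IGF2BP3 1 run held 6 of the 11. Every other region of these genes was a single region, whereas ARID3B and TRIM71 had no single regions. Few of the 190 regions lay near the 5′ edge. Within 1000 nt of it there were 5 regions in all, 3 in IGF2BP1 and 1 each in HMGA1 and IGF2BP3, and the highest score among them was 8. A stretch of 1000 nt is a small part of most windows, so this count does not show a low density there.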

How the data were processed

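The data were 1 list of regions for the pooled libraries, on hg19 per the file headers, with the library set name AGO_good and a filter whose name includes 0.05. BWA 0.5.8c was used per the submitters' processing notes. The sources used here give neither the region caller nor the meaning of the score. The score was taken as deposited by the authors. Coordinates are printed counting from 1.

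Members were regions overlapping a gene window by at least 1 nt on its strand. Windows carried no exon positions. Runs joined same-strand regions with gaps of at most 1000 nt, and an array had at least 10 regions. In each gene the 3 regions of highest score and any of at least 50 were named by rule, and other regions after their values were seen. Further genes of the pathway were not analysed here. The RefSeq gene table matched 8 of 8 symbols and gave gene order and whether a gene is longer than its window. Genes, windows and measures were chosen with earlier results of these data known. No test was run, since no value has a replicate. Wilson 95% intervals are given only for shares of regions by score, and not for all of these. The functions were tested on 17893 simulated regions, where 3 of 3 measures came back as simulated. Software comprised scipy 1.17.1, numpy 2.4.6, matplotlib 3.10.9, pandas 2.3.3 and Python 3.11.15.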

Additional observations from a re-analysis of the deposited data

How the results depend on the processing

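Of 36 alternatives, 30 were planned and 6 were added after the data were seen. For values over all 8 genes, 11 alternatives stayed within 1.5 times the count or sum, or within the Wilson 95% interval of a share, and 9 moved further. Some of the 11 could not move. A cap of scores at 100 cannot change a sum whose highest member score is 60. A minimum score cannot change the 0 regions of the opposite strand. The 190 regions became 111 at scores of at least 3 and 116 without IGF2BP1. The share of regions in the last 5000 nt (65.3%) was 49.5% for the last 3000 nt, 76.8% for the last 8000 nt and 81.0% without IGF2BP1. The share of summed score there (71.4%) was 58.3%, 86.7% and 90.0% under these settings. The share of regions with a score of at least 10 (16.3%) was 14.7% without IGF2BP1. It was 5.79% at a minimum of 20, which is a stricter rule by construction. Windows extended by 6000 nt past the 3′ edge gave 199 regions, the added ones all past TRIM71. Arrays of at least 10 regions numbered 4 instead of 3 at gaps of 500 and of 2000 nt, both times through IGF2BP1. Of the 16 alternatives for single genes, 3 moved, in LIN28B and IGF2BP1, whose runs are longer than 3000 nt. The last 8000 nt could not change the shares of ARID3B and TRIM71, which already stood at 100%. No paired analysis was possible because values of single libraries were not part of the list. The depth is unknown, so a stretch with 0 regions shows only that none was listed there.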

Other observations

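The 1-nt position inside each region, taken 5′ to 3′ from 0 to 1, had a mean of 0.467 over the 190 regions of the 8 genes and of 0.517 over the whole list. The sources used here do not give what this position marks, and the difference was not tested.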
